A study of Mus musculus with 8 samples.

Results

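The genes described here are *Ager*, the gene of RAGE (receptor for advanced glycation end products), *Diaph1*, which encodes the formin that binds the receptor's cytoplasmic tail, the 7 ligand genes *Hmgb1*, *S100b*, *S100a1*, *S100a4*, *S100a6*, *S100a8* and *S100a9*, and *Glo1*, which encodes glyoxalase 1. They were taken by gene symbol from a table of 55291 genes, so that they are 10 of 55291. All 10 were present in the table and all 10 passed the filter on low counts that left 19470 genes for testing. The question put to them was whether their RNA in the spinal cord differed when *Ager* had been deleted from *Cx3cr1*-expressing cells, which in the cord are mainly microglia.

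RAGE is a cell surface receptor of the immunoglobulin family that binds glycated proteins, the nuclear protein HMGB1 once it has left the cell, and several small calcium-binding S100 proteins. Its short tail carries no kinase domain and signals through the actin-nucleating protein DIAPH1, upstream of small GTPases, NADPH oxidase and NF-kB. Glyoxalase 1 acts upstream of the receptor, since it clears methylglyoxal, the reactive sugar by-product from which many advanced glycation end products (AGEs) form. In the nervous system S100B is a product of astrocytes and other glia, and the S100A8 and S100A9 subunits of calprotectin are chiefly products of neutrophils and monocytes.

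RNA was sequenced from whole lumbar spinal cord of 8 male mice of the C57BL/6 strain (C57BL/6J in the paper's methods) carrying the SOD1G93A transgene, a model of amyotrophic lateral sclerosis (ALS). The 4 *Ager*-deleted mice (mouse IDs E1776, E5231, E5248, E5568) were SOD1G93A Ager fl/fl Cx3cr1 Cre/+ and the 4 Cre-expressing controls (mouse IDs E5386, E5642, E6578, E6732) were SOD1G93A Ager +/+ Cx3cr1 Cre/+. The Cre is a tamoxifen-dependent form placed in *Cx3cr1*, so all 8 mice had 1 intact copy of that gene, and all 8 received 0.2 µg of tamoxifen by intraperitoneal injection, 5 times, at 12 weeks. The labels give an age of 120 days at death, whereas the paper places this tissue at end-stage. Mice without the SOD1G93A transgene or without tamoxifen are not analysed here, so every value is a level in ALS-model cord. Because the tissue was whole cord, any *Ager* RNA of neurons, astrocytes, endothelium and other cells that do not express *Cx3cr1* was measured together with that of microglia, and fewer cells of a type cannot be told apart from less RNA per cell.

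Total counts per mouse ran from 31148047 to 40324897, and 3 counts of a gene were worth 0.0729 to 0.0975 CPM (a gene's counts scaled to a common library size by TMM, the trimmed mean of M values), a floor for counting error only. The markers of cord tissue were present in every mouse, with *Gfap* of astrocytes at 6643 to 10908 CPM, *Mbp* of oligodendrocytes at 11048 to 13683 CPM, *Snap25* of neurons at 1160 to 1783 CPM and *C1qa* of microglia at 319 to 724 CPM. Some controls stood apart in markers of other tissues. The 30 skeletal muscle genes summed to 1621 CPM in E5386 and 2356 CPM in E5642 but to between 241 and 260 CPM in the other 6 mice, and the 12 liver genes summed to 733 CPM in E6732 but to at most 4.06 CPM elsewhere. E5386 was also the highest mouse in the sum of 10 adipocyte genes (274 CPM, against 27.9 to 206 CPM in the other mice) and the lowest in meningeal fibroblast genes, with *Dcn* at 12.3 CPM. Outside E5386 the adipocyte sum was mostly *Plin4*, which had 69.3 CPM in E5386 and 201 CPM in E6578. *Fabp4*, named after its values were seen, had 109 CPM in E5386 and at most 6.39 CPM in the other mice. Values for the genes below are therefore also given without E5386 and E5642 where that changes their direction.

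Of the 10 genes, *Ager* had the only genotype difference that exceeded the spread between mice, and it did not pass adjustment over all genes tested. No gene of the 10 was called by edgeR's exact test at an adjusted p under 0.05 (0 of 10, against 0.0719% of the 19470 genes), and 0 of 10 were called by the quasi-likelihood test (background 0.00514%), as by DESeq2, limma-voom and an exact test run on common and tagwise dispersions. An unadjusted p under 0.05 was found for 1 of the 10 genes, *Ager*, in either test, where 4.26% of all genes had one by the exact and 6.71% by the quasi-likelihood method. The genotypes did not overlap for 1 of 10 genes, again *Ager*, against 3.88% of all genes tested. The median log2 fold change of the 10 genes, written throughout as *Ager*-deleted over Cre control, was -0.05 beside 0.01 over all genes tested, and 4 of the 10 were above 0 and 6 below.

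**Figure D1:**
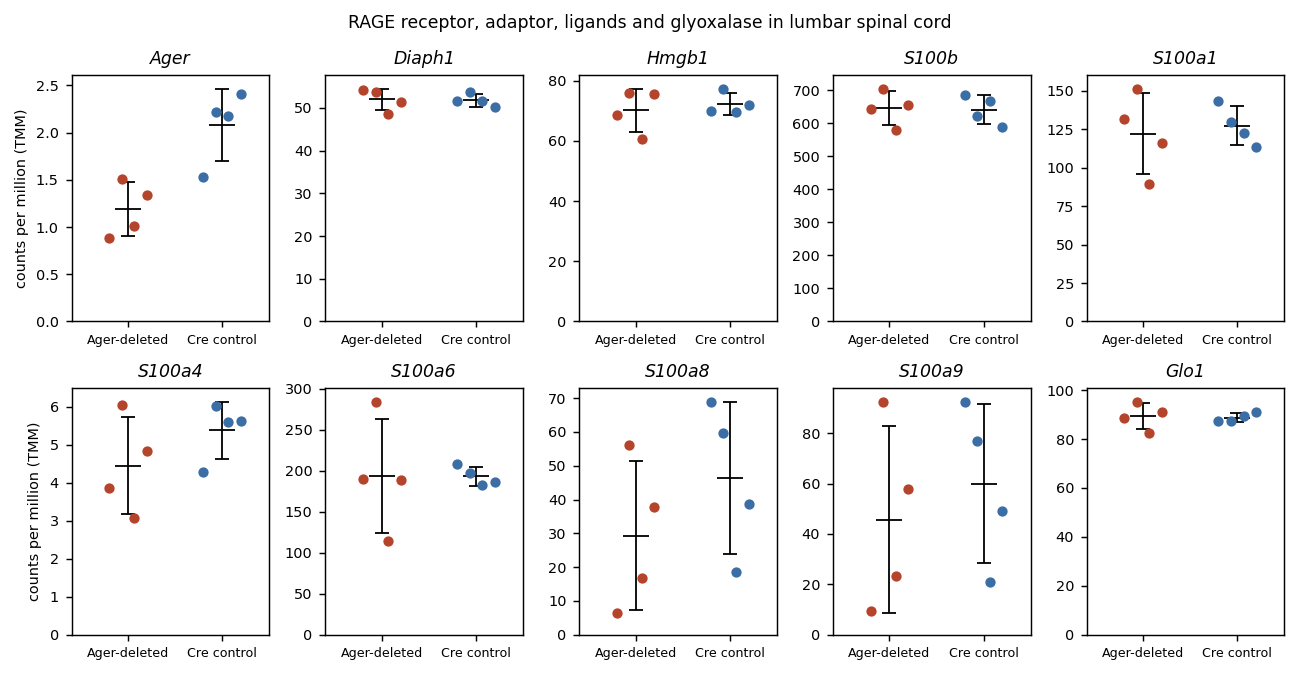
TMM-normalized CPM of each of the 10 genes (vertical axis, from 0) in the 4 Ager-deleted mice and the 4 Cre-expressing controls; each point is a mouse, the wide tick is the mean and the error bar the SD. The genotypes are separate only for Ager, between 0.889 and 1.51 CPM in Ager-deleted mice and between 1.53 and 2.41 CPM in controls.

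The plot of CPM by mouse shows this for every gene at once: the points of the genotypes interleave for *Diaph1*, *Glo1* and each of the ligands, and the vertical spread is small for *Diaph1* and *Glo1* and wide for *S100a8* and *S100a9*.

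The receptor was the least abundant of the 10. *Ager* (ENSMUSG00000015452, chromosome 17, 34597862 to 34600936 on the forward strand of GRCm38) was lowest in the deleted mouse E1776 at 0.889 CPM, and the deleted mice E5248, E5568 and E5231 had 1.02, 1.34 and 1.51 CPM. The control E5386 had 1.53 CPM, and the controls E6578, E5642 and E6732 had 2.18, 2.22 and 2.41 CPM. All 4 deleted mice lay below all 4 controls, but the highest deleted mouse and the lowest control were nearly level, and with scaling by library size alone their values overlapped. The mean of 1.19 ± 0.287 CPM (SD, n = 4) in deleted mice was 57.1% of the mean of 2.08 ± 0.382 CPM (SD, n = 4) in controls.

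The log2 fold change of *Ager* was -0.81, with a 95% interval of -1.29 to -0.33 from the quasi-likelihood fit. The edgeR exact test gave an adjusted p of 0.252, and the edgeR quasi-likelihood test gave 0.705. On log2(CPM + 1) the genotypes differed by -0.49 (exact two-sided permutation test over 70 assignments, p = 0.0286, the smallest that 4 mice against 4 allow). Of the alternatives run, the exact test's adjusted p fell below the threshold only without the control E5386, where the log2 fold change was -0.94 and the adjusted p 0.0442, and it ranged from 0.0442 to 1 as each mouse was left out. The values rest on 35 to 56 reads per deleted mouse and 56 to 99 per control, and the counting error alone corresponds to a coefficient of variation of 14.9% and 11.7%, beside observed ones of 24.1% and 18.3%. The counts are sums over all exons of *Ager*, and which exons the floxed allele removes is not given in the sources used here, so reads from a deleted transcript's remaining exons would be included.

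Most markers of the targeted cells overlapped between genotypes, and 2 of 15 did not, beside 3.88% of all genes tested. All 15 microglial genes were counted in every mouse, and their sum ran from 1540 to 2575 CPM in deleted mice and from 1954 to 2231 CPM in controls. *Cx3cr1*, the gene that carries the Cre, ran from 75.5 to 123 CPM in deleted mice and from 92.3 to 111 CPM in controls. The microglial sum was thus more variable among deleted mice, on both sides of the controls. The genotypes did not overlap for *Gpr34* and *P2ry12*, receptor genes of homeostatic microglia named after their values were seen, and both were lower in deleted mice. *Gpr34* had 19.9 to 25.5 CPM in deleted mice and 28.8 to 32.6 CPM in controls, a log2 fold change of -0.42 (edgeR exact test, adjusted p = 0.0848). *P2ry12* had 24.2 to 32.6 CPM in deleted mice and 32.7 to 36.5 CPM in controls, at -0.32 (edgeR exact test, adjusted p = 0.507). The endothelial gene *Slco1a4*, the oligodendrocyte gene *Aspa* and the Schwann cell gene *Cdh19*, also named afterwards, were likewise lower without overlap. Each was the only such gene of its list, 1 of 9, 1 of 11 and 1 of 9 genes tested. Their log2 fold changes were -0.53, -0.35 and -0.48 (edgeR exact test, adjusted p = 0.0713, 0.28 and 0.14). The median log2 fold changes of those lists were -0.03, 0.002 and -0.24. The part of microglial content and state in the *Ager* values was not tested.

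*Diaph1*, the signaling partner, was among the steadiest of the 10 genes. The gene (ENSMUSG00000024456, chromosome 18, 37843601 to 37935476, reverse strand) had 54.2, 53.7, 48.6 and 51.4 CPM in the deleted mice, ordered here and below as E1776, E5231, E5248, E5568. The controls, ordered as E5386, E5642, E6578, E6732, had 51.5, 53.8, 51.6 and 50.1 CPM. E1776 was the highest mouse and E5248 the lowest, both deleted mice, and they differed by 1.11-fold. The log2 fold change was 0.01 and its 95% interval corresponded to a fold of 0.919 to 1.10.

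*Glo1*, which encodes the enzyme that detoxifies methylglyoxal with glutathione, was equally level. The gene (ENSMUSG00000024026, chromosome 17, 30584936 to 30626871, reverse strand) had 88.6, 95.2, 82.6 and 91.2 CPM in deleted mice, in the same order, and 87.2, 87.4, 89.6 and 91.0 CPM in controls. The controls differed among themselves by 1.04-fold and lay wholly inside the range of the deleted mice. The log2 fold change was 0.01, with a 95% interval equivalent to a fold of 0.923 to 1.10, and it was -0.02 without E5386 and E5642. *Glo1* and *Ager* share chromosome 17, 3970990 bases apart, and some transcripts annotated in the *Glo1* region overlap it, so its counts depend on how shared reads were assigned.

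Among the ligands, *Hmgb1* and *S100b* varied little. *Hmgb1* (ENSMUSG00000066551, chromosome 5, 149046702 to 149184489, reverse strand), whose product is a chromatin protein until it is released, had 68.7, 75.9, 60.7 and 75.6 CPM in deleted mice and 70.0, 77.4, 69.6 and 71.8 CPM in controls. E5248, a deleted mouse, was the lowest and E5642, a control, the highest, and the others lay close together. The log2 fold change was -0.04 and the 95% interval a fold of 0.862 to 1.10. *Hmgb1* has near-identical processed pseudogene copies, and reads shared with these are uncertain.

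*S100b* (ENSMUSG00000033208, chromosome 10, 76253853 to 76261159, forward strand) was the most abundant of the 10. Deleted mice had 644, 706, 580 and 656 CPM, and controls had 686, 624, 667 and 589 CPM. The highest and the lowest mouse were both deleted mice, E5231 and E5248, 1.22-fold apart. The log2 fold change was 0.01 and the 95% interval a fold of 0.886 to 1.15. Adipocytes can also make S100B, and E5386, with the highest adipocyte sum, had the second highest *S100b* level. The mouse with the highest, E5231, had an adipocyte sum of 69.3 CPM, of which 60.6 CPM was *Plin4*. The part of those cells in *S100b* was not tested.

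*S100a1*, *S100a4* and *S100a6* varied more than *S100b*, and all 3 had the same highest and lowest mouse. *S100a1* (ENSMUSG00000044080, chromosome 3, 90511034 to 90514392, reverse strand), a calcium-binding regulator best known from muscle and also found in neurons, had 132, 151, 89.2 and 116 CPM in deleted mice and 143, 130, 122 and 113 CPM in controls. *S100a6* (ENSMUSG00000001025, chromosome 3, 90612882 to 90624181, forward strand), also called calcyclin, had 190, 284, 114 and 189 CPM in deleted mice and 208, 198, 183 and 186 CPM in controls. For both genes E5231 was the highest and E5248 the lowest of the 8 mice, and the controls stayed between them.

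*S100a4* (ENSMUSG00000001020, chromosome 3, 90603771 to 90606045, forward strand), a marker of motile fibroblasts and macrophages, had the lowest CPM of the ligands. It had 3.86, 6.04, 3.08 and 4.83 CPM in deleted mice and 4.29, 6.02, 5.59 and 5.62 CPM in controls. Deleted mice E1776 and E5248 lay below all controls, but E5231 lay above all of them. The log2 fold changes of *S100a1*, *S100a4* and *S100a6* were -0.06, -0.27 and 0.01. Their 95% intervals were folds of 0.772 to 1.19, 0.607 to 1.13 and 0.726 to 1.39, and the edgeR exact test gave each an adjusted p of 1. *S100a4* shares 302 bases of exon with the same-strand gene model *Gm42674*, so reads there may be split. *S100a1* was highest in E5231, whose skeletal muscle sum of 247 CPM lay within the range of the mice not marked by muscle. The muscle-marked control E5386 came next at 143 CPM, while E5642, also muscle-marked, had 130 CPM, below E1776. The part of muscle tissue in *S100a1* was not tested. Without these 2 controls the log2 fold change of *S100a1* was 0.05.

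The mice E5231 and E5248 were the extremes for most genes of the S100 family. Of the 13 S100 genes that passed the filter, which are the 6 members, 6 further genes described with the pathway lists and *S100a2*, which is in no list, 9 had both their highest value in E5231 and their lowest in E5248, beside 8.29% of all genes tested. Transcript length moved with these mice. Among the 216 genes with at most 1000 bases of exon and a mean above 5 CPM, the median deviation from a gene's mean over the 8 mice was 0.16 on the log2 scale in E5231 and -0.17 in E5248, and 30.1% of them had the same pair of extremes. Among the 2559 genes with over 8000 bases of exon the medians were -0.08 and 0.08 and the share was 2.11%. The microglial sum was likewise highest in E5231 and lowest in E5248. Deviations of *S100a6*, at 0.59 and -0.72, and of *S100a1*, at 0.29 and -0.46, were larger than those medians, and the part of length and of cell content in them was not tested.

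*S100a8* and *S100a9* had by far the widest spread of the 10. Their genes neighbor each other on chromosome 3 of GRCm38, *S100a8* (ENSMUSG00000056054) from 90668978 to 90670035 on the forward strand and *S100a9* (ENSMUSG00000056071) from 90692632 to 90695721 on the reverse strand, with 22596 bases between them. Since their RNAs moved together from mouse to mouse, the 250 bases before each annotated start were searched, from RefSeq's annotation on GRCm38.p6, 5′ to 3′ along the gene. RefSeq's *S100a8* start, at 90669071, lies downstream of the GENCODE gene boundary given above, so the last 93 bases of that window lie inside the GENCODE gene and are not shown. Capitals mark matches on either strand to TATAAA, the core of a TATA box, and to TTGCNNAA, letters within the range bound by C/EBP factors of the myeloid lineage.
S100a8 (chr3:90668821-90668977, forward strand): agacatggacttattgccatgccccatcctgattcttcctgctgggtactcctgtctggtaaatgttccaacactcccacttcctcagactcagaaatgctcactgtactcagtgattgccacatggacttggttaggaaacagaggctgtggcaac
S100a9 (chr3:90695722-90695971, reverse strand): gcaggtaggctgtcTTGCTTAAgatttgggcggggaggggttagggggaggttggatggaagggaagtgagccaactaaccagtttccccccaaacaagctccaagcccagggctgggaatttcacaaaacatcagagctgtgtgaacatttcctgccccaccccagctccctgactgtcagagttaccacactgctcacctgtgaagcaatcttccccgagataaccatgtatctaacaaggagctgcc

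The *S100a8* window held TATAAA at position -30 from RefSeq's start, within the bases not shown, and the *S100a9* window held none, although the same letters begin at base 1 of the annotated transcript, just beyond the bases shown. The *S100a9* window held TTGCNNAA at position -236 and the *S100a8* window did not. Of 32851 mouse promoter windows of 250 bases, 12.4% held TATAAA and 9.56% held TTGCNNAA, and the motifs did not overlap each other here. A match is a description of the letters only. Where transcription begins was not measured, so the windows and positions depend on the annotated starts, and that of *S100a9* is uncertain.

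*S100a8* had 6.58, 56.1, 16.7 and 37.7 CPM in the deleted mice. The controls had 68.9, 59.6, 18.6 and 38.6 CPM. Both genotypes thus held low mice and high mice, and the range was 8.54-fold among deleted mice and 3.70-fold among controls. *S100a9* had 9.55, 92.4, 23.1 and 57.8 CPM in the same deleted mice and 92.4, 76.9, 21.1 and 49.3 CPM in the same controls. E5231, a deleted mouse, and E5386, a control, were level at the top for *S100a9*, and E1776 was the lowest mouse for both genes.

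The genotype differences of the calprotectin genes were therefore within the spread between mice. The log2 fold change of *S100a8* was -0.66 (95% interval -1.93 to 0.60) and that of *S100a9* was -0.39 (95% interval -1.75 to 0.97); the edgeR exact test gave both an adjusted p of 1. Without controls E5386 and E5642 the values were 0.02 and 0.37, on the other side of 0. The biological coefficient of variation estimated by edgeR was 54.9% for *S100a8* and 58.8% for *S100a9*, 4.45 and 4.83 times the trend for genes of their abundance, whereas for *Diaph1* and *Glo1* it was 0.66 and 0.69 times the trend. Counting error corresponded to at most 3.02% for the pair, from 259 to 3428 reads per mouse.

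**Figure D2:**
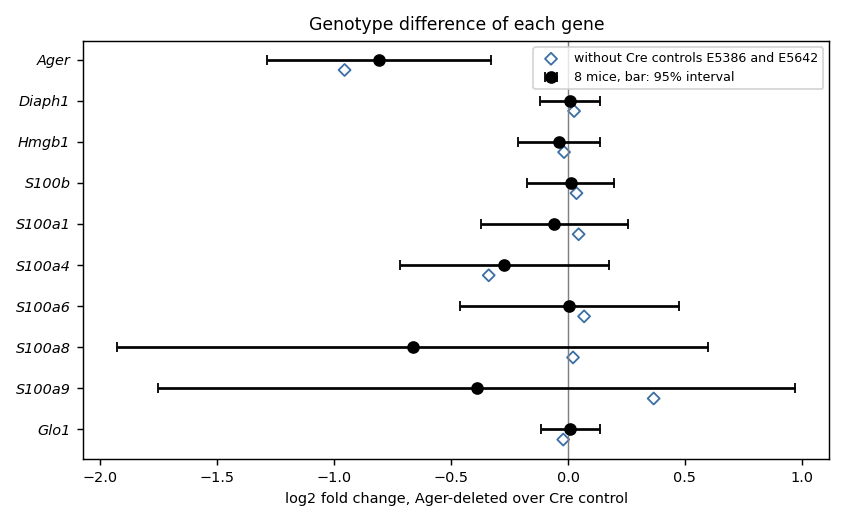
Log2 fold change of each gene, Ager-deleted over Cre control (horizontal axis), from edgeR over all 8 mice (filled circles, with the 95% interval of the quasi-likelihood fit as bars) and without controls E5386 and E5642 (open diamonds). Only the interval of Ager, -1.29 to -0.33, leaves out 0, and the diamonds of S100a1, S100a8, S100a9 and Glo1 lie on the other side of 0 from their circles.

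The plot of genotype differences sets the narrow intervals of *Diaph1*, *Glo1*, *Hmgb1* and *S100b* beside those of *S100a8* and *S100a9*, which span more than 2 log2 units.

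Neutrophil granule genes followed the calprotectin genes. All 16 neutrophil markers were counted in every mouse, and none was at 0 in all. Their sum ran from 96.1 to 236 CPM in deleted mice and from 108 to 233 CPM in controls. Much of the sum in the low mice was *Csf3r*, the highest of the list, which did not follow *S100a9*. *Csf3r* had 62.8 CPM in E1776 and 62.9 CPM in E5231. For 14 of the 16 markers the 3 lowest mice were E1776, E5248 and E6578, the same 3 as for *S100a9*, and for 12 of the 16 the 3 highest were E5231, E5386 and E5642, again the same. The granule protein genes *Ngp* and *Ltf* were the closest to *S100a9* apart from *S100a8*, with Pearson r of 0.997 and 0.987 over the 8 mice, and 0.996 and 0.987 over deviations from the genotype means. *Ngp* had 5.89 CPM in E1776 and 53.4 CPM in E5231. Between *S100a8* and *S100a9* themselves r was 0.990, and 0.999 within genotypes.

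Most other blood and immune markers had other orders. *Hbb-bs*, the erythroid globin gene, was highest in E6578 at 274 CPM, a mouse low in *S100a9*, and had 78.6 CPM in E5386, the mouse at the top for *S100a9*. Of the 9 monocyte and border macrophage markers, 1 shared the 3 lowest mice of *S100a9* and 2 shared the 3 highest. The monocyte gene *Ly6c2* shared both sets and *Ccr2* the highest, both named after their values were seen. Of the 8 T cell markers, 0 shared either set. The ranges of the summed monocyte and border macrophage markers overlapped between genotypes, at 420 to 634 CPM in deleted mice and 416 to 745 CPM in controls. How far granulocytes or monocytes in the tissue or its vessels account for the *S100a8* and *S100a9* levels was not tested.

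**Figure D3:**
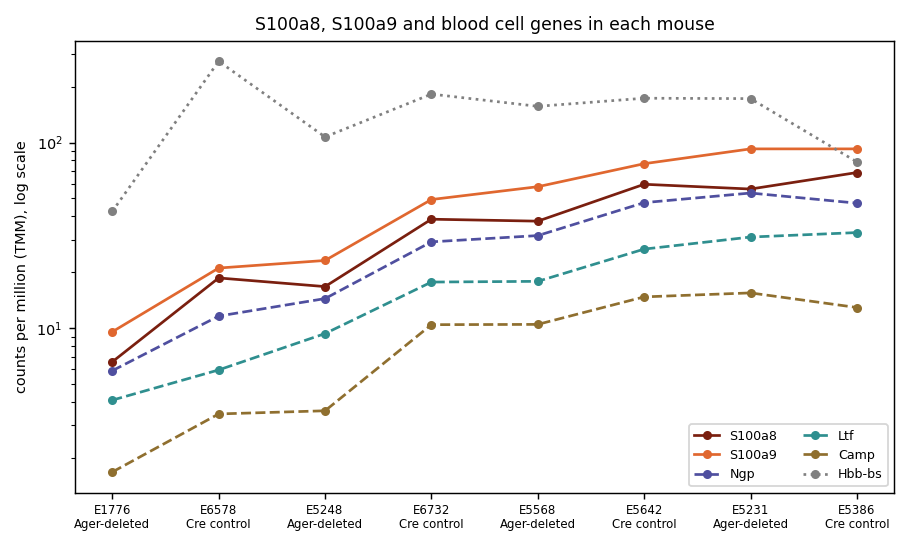
TMM-normalized CPM (vertical axis, log scale) of S100a8 and S100a9 (solid lines), the neutrophil granule genes Ngp, Ltf and Camp (dashed) and the erythroid gene Hbb-bs (dotted) in each of the 8 mice, ordered from the lowest to the highest S100a9 value. The solid and dashed lines run in parallel from E1776 to E5386, over nearly 10-fold for S100a9 (9.68-fold), and the dotted line does not follow.

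As the plot of blood cell genes by mouse shows, the *S100a8* line lay closer to the *S100a9* line in some mice than in others. The ratio of *S100a8* to *S100a9* was 0.689, 0.608, 0.723 and 0.652 in the deleted mice and 0.745, 0.775, 0.884 and 0.783 in the controls. It was lower in all 4 deleted mice than in all 4 controls, with means of 0.668 ± 0.0496 (SD, n = 4) and 0.797 ± 0.0604 (SD, n = 4), although the level of neither gene separated the genotypes. The 95% counting intervals of single mice, from a normal approximation of the log ratio, overlapped: for E5248, the highest deleted mouse, the interval was 0.651 to 0.804, and for E5386, the lowest control, it was 0.708 to 0.785. The ratio of *S100a8* to *Ngp* did not overlap either, at 1.05 to 1.20 in deleted mice and 1.26 to 1.61 in controls, whereas the ratio of *S100a9* to *Ngp* did, at 1.60 to 1.83 and 1.62 to 1.96. Both *S100a8* ratios share their numerator, and *Ngp* followed *S100a9* with r of 0.997, so they are not separate observations. All the ratios were chosen after the values of the genes were seen, so they are given as a description without a test. The genotypes did not overlap for 3.88% of single genes tested. The share of all gene ratios without overlap was not computed, so how unusual these ratios are is not known.

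**Figure D4:**
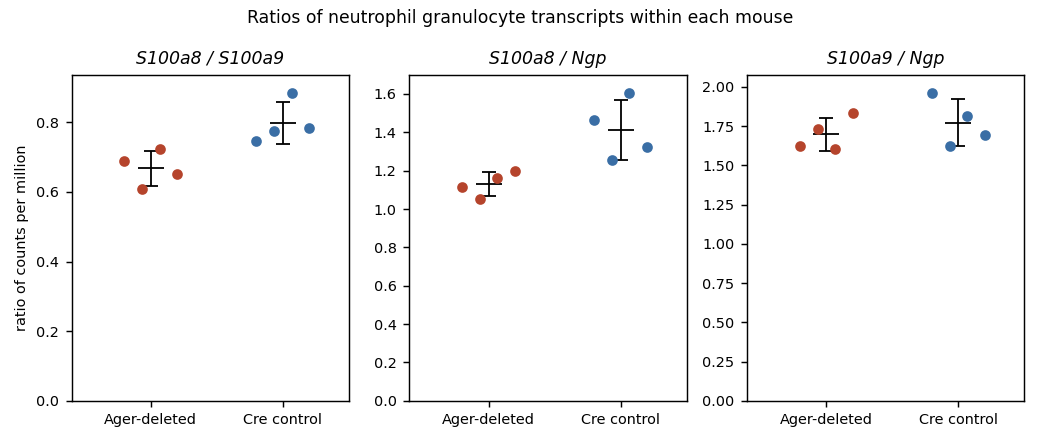
Ratios of CPM within each mouse (vertical axes, from 0) for S100a8 over S100a9, S100a8 over Ngp and S100a9 over Ngp in the 4 Ager-deleted mice and the 4 Cre-expressing controls; the wide tick is the mean and the error bar the SD. The genotypes are separate for S100a8 over S100a9 and for S100a8 over Ngp, and overlap for S100a9 over Ngp.

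In the plot of within-mouse ratios, *S100a8* relative to *Ngp* was lower in each deleted mouse than in each control, while *S100a9* relative to *Ngp* was not.

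Compared per length, with CPM divided by the length in kb of the longest principal transcript of each gene, the mean levels fell in the order *S100b* (434 CPM per kb), *S100a6* (265), *S100a1* (184), *S100a9* (102), *S100a8* (77.9), *Hmgb1* (25.1), *S100a4* (9.87), *Diaph1* (9.15), *Glo1* (9.03) and *Ager* (1.20). *S100b* stood above *S100a6*, *Hmgb1* above *S100a4*, and all others above *Ager* in 8 of 8 mice without overlap of their ranges. *S100a6*, *S100a1* and *S100a9* overlapped in range with the next gene although the order held within each of the 8 mice. *S100a8* lay above *Hmgb1* in 7 of 8 mice, and *S100a4*, *Diaph1* and *Glo1* could not be ordered, since each step held in 5 of 8 mice. Length matters most for *Glo1*, whose principal transcripts run from 895 to 9865 bases: with the shortest, its level was 99.6 CPM per kb. With all exon bases of a gene as its length, *S100a1* (180 CPM per kb) lay above *S100a6* (142 CPM per kb). On the principal transcript scale, *S100b* RNA exceeded *Ager* RNA 432 to 669 times in deleted mice and 226 to 414 times in controls, a ratio that contains the *Ager* difference.

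The genes whose pattern over the 8 mice was most like that of a member are given as a description, since with 19470 genes and 8 mice high values of r are frequent. For *Ager* they were *Ostm1* (r = 0.986, and 0.964 within genotypes), *Uri1* (0.978) and *Eif2a* (0.964). For *S100a6* they were its family member *S100a10* (0.996), *Rps12* (0.981) and *S100a11* (0.980), and for *S100a4* they were *Lgals1*, which encodes galectin-1 (0.970), *Cracr2b* (0.966) and *Hfe* (0.966). *S100b* was closest to the mitochondrial genes *Coq9* (0.970), *Micos10* (0.967) and *Uqcr10* (0.967), and *S100a1* to *Sigirr* (0.986), *Dhrs1* (0.981) and *Samsn1* (0.981). *Diaph1* was closest to *Tnfsf11* (0.993), *Wwc1* (0.986) and *Crym* (0.982), *Hmgb1* to *Pmaip1* (0.968), *Gm12017* (0.959) and *Nip7* (0.957), and *Glo1* to *Rpl36* (0.972), *Sh2d2a* (0.970) and *Mkrn1* (0.970). The third gene closest to *S100a8*, after *S100a9* and *Ngp*, was *Snrpe* (0.976). Of these genes, *Gm12017*, *Sh2d2a*, *Tnfsf11*, *Sigirr* and *Cracr2b* were low, at means of 0.343, 0.457, 1.92, 1.92 and 3.45 CPM.

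Within the 10, *Ager* itself was closest to *S100a4*, with r of 0.804 over all mice and 0.847 within genotypes, and *S100a4* was in turn close to *Hmgb1* (0.851). *S100a1* and *S100a6* were closer still (0.932), and the pair *Ager* and *S100b* had r of -0.04.

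The wider RAGE pathway was read through 11 lists of 138 genes, of which 127 passed the filter. These totals include a list of 6 genes next to *Glo1*, which are chromosomal neighbors and were not chosen as pathway genes. By the exact test 0 of 127 were called higher and 0 were called lower, against 0.0719% of all genes tested, and 0 were called by the quasi-likelihood test. An exact test run on common and tagwise dispersions called 2, *Ttr* and *Cd36*, where it called 78 of the 19470 genes. An unadjusted p under 0.05 in the exact test was found for 8 of the 127 (6.30%, background 4.26%), and the genotypes did not overlap for 3 (2.36%, background 3.88%). The median log2 fold change of the 127 genes was -0.01 beside 0.01 over all genes.

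No other ligand or ligand relative was called by the exact test, and all tested ones except *Ttr* had log2 fold changes between -0.07 and 0.15. Of 10 further S100 genes 6 passed the filter, with a median log2 fold change of 0.04, and the highest per kb, *S100a16*, had 162 ± 33.1 CPM in deleted mice and 152 ± 17.7 CPM in controls (SD, n = 4 each). The psoriasin relative *S100a7a*, the member of that list with the largest difference, had a log2 fold change of 0.15 (edgeR exact test, adjusted p = 1). Of 3 HMGB relatives 2 passed, *Hmgb2* and *Hmgb3*, at log2 fold changes of 0.09 and -0.03. Of the 8 other RAGE ligands and binding partners, the complement gene *C1qa* and the prion protein gene *Prnp* were at log2 fold changes of 0.02 and -0.03. *Ttr*, which encodes the plasma carrier transthyretin, had a log2 fold change of -5.73 (edgeR exact test, adjusted p = 0.176), but its level was 28.1 CPM in E6732, the control with liver genes, and it was between 0.0273 and 0.520 CPM in the other 7 mice.

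Receptors that share ligands with RAGE were a list of 15 genes, of which 14 were tested, with a median log2 fold change of -0.13. *Cd36*, a scavenger receptor for modified lipoproteins that adipocytes and muscle also express, had 6.46 ± 2.08 CPM in deleted mice and 16.2 ± 8.82 CPM in controls (SD, n = 4 each), a log2 fold change of -1.33 (edgeR exact test, adjusted p = 0.183) that was -0.46 without E5386 and E5642. *Tlr4*, the Toll-like receptor that binds HMGB1 and S100A8/A9, had 5.40 ± 0.879 CPM and 7.57 ± 1.82 CPM, a log2 fold change of -0.49 (edgeR exact test, adjusted p = 0.995). *Lgals3*, an AGE-binding galectin and the highest of the list per kb, had a log2 fold change of -0.08.

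Of 9 genes of RAGE shedding and turnover, all tested, the sheddase gene *Adam10* had 108 ± 10.2 CPM in deleted mice and 122 ± 7.59 CPM in controls (SD, n = 4 each), a log2 fold change of -0.18. *Mmp9* was at -0.35 and the inhibitor gene *Timp1* at 0.08. The edgeR exact test gave each an adjusted p of 1.

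Downstream of DIAPH1, 16 genes of formins, small GTPases and their kinases had a median log2 fold change of -0.04. *Diaph2*, the paralog of *Diaph1*, had 19.4 ± 1.18 CPM in deleted mice and 23.6 ± 1.60 CPM in controls (SD, n = 4 each), and its genotypes did not overlap, with a log2 fold change of -0.29 (edgeR exact test, adjusted p = 0.618). The kinase gene *Rock1* was at -0.19 and *Rhob*, the highest of the list per kb, at 0.05 (edgeR exact test, adjusted p = 1 for both).

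Of 24 genes of NF-kB and kinase signaling, the median was 0.02. *Rel*, which encodes an NF-kB subunit, was at a log2 fold change of -0.28, the early response gene *Egr1* at -0.24 and *Mapk3* at 0.06 (edgeR exact test, adjusted p = 1 for each). The genotypes did not overlap for *Ikbkg*, the regulatory subunit of the IkB kinase, named after its values were seen, at a log2 fold change of -0.10. Of 7 NADPH oxidase genes 6 passed, with the catalytic subunit gene *Cybb* at -0.23, its partner *Cyba* at 0.06 and *Nox4* at -0.20.

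Of 18 inflammatory target genes 15 passed, with a median of -0.09. *Ptgs2*, which encodes the inducible cyclooxygenase, had 1.16 to 1.69 CPM in deleted mice and 1.92 to 2.47 CPM in controls, without overlap, at a log2 fold change of -0.54 (edgeR exact test, adjusted p = 0.765). *Il1b* was at -0.52 and the tissue factor gene *F3* at -0.09 (edgeR exact test, adjusted p = 1 for both). *Il6*, *Sele* and *Selp*, also named afterwards, did not pass the filter, with at most 10 counts in any mouse.

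Of 22 genes of glyoxalase and dicarbonyl detoxification 21 passed, with a median of 0.01. The glycolytic gene *Tpi1*, whose substrates are the main source of methylglyoxal, was at a log2 fold change of 0.14, the deglycating kinase relative *Fn3krp* at 0.18 and the glutathione synthetase gene *Gss* at 0.15 (edgeR exact test, adjusted p = 1 for each). The 6 genes next to *Glo1* had a median of 0.14, with *Dnah8* at 0.54, *Mdga1* at 0.28 and *Btbd9* at 0.11 (edgeR exact test, adjusted p = 1 for each).

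**Figure D5:**
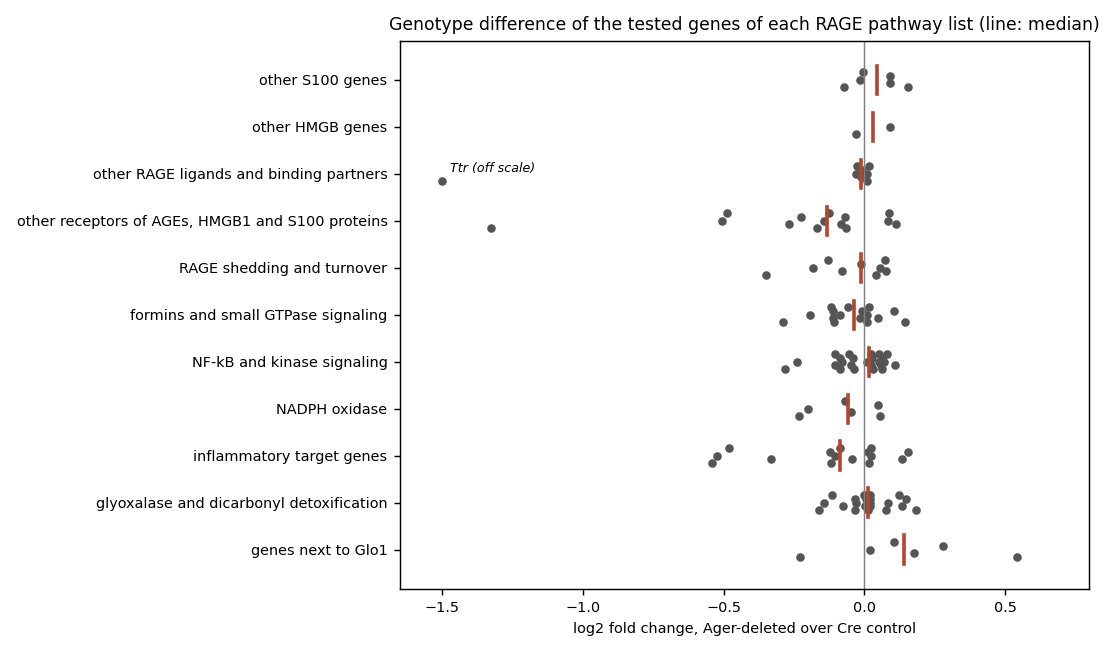
Log2 fold change, Ager-deleted over Cre control (horizontal axis), of the tested genes in each of 11 lists (rows). The lists are of the RAGE pathway, except that of the genes next to Glo1. Each dot is a gene, the vertical bar its list's median, and dots are offset vertically only for legibility. Ttr, at -5.73, is off scale and drawn at -1.5, and the list medians lie between -0.13 and 0.14.

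The plot of the pathway lists places 108 of the 127 genes within 0.2 log2 units of 0, with *Cd36* and *Ttr* as the far points on the left.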

How the data were processed

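The authors aligned read pairs to mm10 with STAR 2.7.3a and summed them per gene with featureCounts (Subread 1.6.3), and deposited raw counts and a table of log2 TMM-normalized CPM. The strand setting of the counting is not given in the sources used here. Tests used the raw counts, and the deposited log2 table, recomputed to within 4.78e-06, served to check the filter and scaling.

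Genes passing filterByExpr (minimum 10 counts, 19470 genes) were scaled by TMM and compared by edgeR 4.0.16's exact test with estimateDisp dispersions, which the study's methods name without the dispersion estimate, and p-values were adjusted by Benjamini-Hochberg over all genes (threshold 0.05). Standard errors and 95% intervals came from edgeR's quasi-likelihood fit. CPM with a pseudocount of 1 was used for correlations and the exact permutation test. On data simulated for this comparison (19244 genes tested, log2 fold change 1.5) the exact test recovered 177 of 190 changed genes with 27 false calls. Recovery at smaller log2 fold changes, such as the -0.81 of *Ager*, was not tested.

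The members and lists were chosen with earlier results of these data known. Named genes were the 10 members, per pathway list the highest per kb of exon, the 2 of smallest p and any called, per member the 3 most correlated genes, and per marker list its highest gene; others are said to be named afterwards. Positions are from GENCODE M21 on GRCm38. The alternatives were other scalings, filters, dispersions and tests (DESeq2 1.42.0, limma-voom), an adjusted p of 0.10 and mice left out. With 4 mice per group, each a separate animal, precision is limited mainly by the spread between mice. One marker gene list is not reported here. The human data and other experiments are not analysed here.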

Additional observations from a re-analysis of the deposited data

Results flagged for a closer look

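Among 48 sets of 4 mice examined (20 for the members and 28 for the marker lists), 1 was set apart by a mouse far from the others. The sum of the 12 liver markers was 733 CPM in the control E6732, against 3.24 to 4.06 CPM in the other 3 controls, and the gap was 0.999 of the whole range, above the 95% critical value of Dixon's test for 4 values. Chance alone flags about 1 in 20 such sets. No set of the 10 members was flagged. *Ttr*, the RAGE pathway gene that is also a liver marker, had 28.1 CPM in E6732.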

How the results depend on the processing

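No member was called in any fit that used all 8 mice, and 1, *Ager*, was called when E5386 was left out (0 to 1 members called as each mouse was left out). The count of all genes called moved from 14 to 8 with CPM above 1 in at least 4 mice, 78 with common and tagwise dispersions, 1 with the quasi-likelihood test, 25 with DESeq2, 1 with limma-voom, 48 at an adjusted p of 0.10, 67 without E5386 and E5642, and 3 to 98 as each mouse was left out. Pathway genes called moved from 0 to 2 (*Ttr* and *Cd36*) with common and tagwise dispersions, 1 (*Ttr*) without E5386 and E5642, and 0 to 2 (*Ttr* without E5386 or E6578, *Cd36* without E6578 or E6732) as each mouse was left out. The cause was not tested.

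The *Ager* log2 fold change stayed between -0.94 and -0.69 as each mouse was left out and between -0.96 and -0.78 otherwise. Its difference on log2(CPM + 1) was -0.59 to -0.43 with a mouse left out, each with an exact permutation p of 0.0571, the smallest that 3 against 4 allow. With scaling by library size only, 0 members had genotypes that did not overlap. Without E5386 and E5642, the log2 fold change changed sign for *S100a1* (0.0454), *S100a8* (0.0213), *S100a9* (0.37) and *Glo1* (-0.0205), and with limma-voom for *S100a6* (-0.0661). As each mouse was left out it ranged from -0.0134 to 0.0378 for *Diaph1*, -0.0786 to 0.0245 for *Hmgb1*, -0.0326 to 0.0607 for *S100b*, -0.18 to 0.0654 for *S100a1*, -0.24 to 0.19 for *S100a6* and -0.0208 to 0.0468 for *Glo1*, and without a change of sign from -0.45 to -0.13 for *S100a4*, -1.19 to -0.33 for *S100a8* and -0.99 to -0.05 for *S100a9*; none of these was called. No paired analysis was possible because the labels give mouse IDs and no replicate numbers shared between genotypes. Depth limits *Ager* most, at 35 to 99 reads per mouse.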
